A study of Mus musculus with 12 samples.

Results

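Genes that copy DNA fell together in mouse muscle tumours when doxycycline, the inducer of their YAP1 transgene, was withdrawn. The set described here held 42 genes of DNA replication and of the E2F system, and all 42 were among the 19937 genes measured. They were chosen by name for their textbook roles, with earlier results of these data known. At 3 days after doxycycline was withdrawn, 39 of the 42 were called lower than in tumours kept on doxycycline, and 0 higher. The deepest fall was 4.36-fold, for Pole. Of all genes, 16% were called lower and 13.4% higher. At 6 days 40 of the 42 were called lower and 0 higher, against 16.6% and 14.9% of all genes. Levels of the 42 at 6 days lay close to those at 3 days, and most stayed above the level of normal muscle.

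The study concerns the role of YAP1, a transcriptional coactivator that Hippo signalling holds back, in rhabdomyosarcoma, a soft tissue tumour that resembles developing muscle. The RNA of 12 samples, 3 in each of 4 groups, went onto Affymetrix mouse arrays read in 1 colour. Allograft tumours were taken with doxycycline present (TUM, day 0), 3 days after its removal (OFF3) and 6 days after its removal (OFF6), and uninduced hindlimb muscle was the control (CTL). Every tumour donor and every control mouse was of strain C57BL/6 and combined 3 alleles, Myf5Cre, then R26-LSL-rtTA, and as the inducible transgene Col1a-Teto-hYAP1 S127A, so that the control muscle carried the transgene without its inducer. In this design Cre is active in cells with a history of Myf5, a myogenic factor, and lets rtTA drive a human YAP1 with the S127A substitution as long as doxycycline is given. Donors had doxycycline for 4 weeks before the interstitial cells were taken from their hindlimb muscle and placed in the gastrocnemius of NOD/SCID hosts, which lack functional T and B lymphocytes but keep stroma, vessels, macrophages and muscle fibres of their own. The labels give no age of the mice, and no label says whether the replicates came from different animals. The p-values therefore cover the spread between these arrays, which may be technical.

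DNA replication starts when the origin recognition complex, CDC6 and CDT1 load the MCM helicase onto origins. The helicase is then activated by CDC45, the GINS complex and MCM10, and polymerases with their sliding clamp copy both strands from deoxynucleotides that ribonucleotide reductase, thymidylate synthase and thymidine kinase supply. Many of these genes are known targets of the E2F transcription factors, which the retinoblastoma protein restrains and which cyclin E with its kinase releases at the entry to S phase. In bulk tissue, fewer dividing cells and less RNA per cell cannot be told apart.

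All values below are log2 intensities, and differences are log2 differences ± SE from a limma model of all 12 arrays, with 3 arrays per group. A change was called at a Benjamini-Hochberg adjusted p below 0.05 over all 19937 genes. Levels of different genes come from different probe sets and are not set against each other.

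Over all genes, 16% were called lower and 13.4% higher in OFF3 than in TUM tumours, and the median difference of all genes was 0.02. Of the 42 replication and E2F genes, 39 were called lower and 0 higher, with a median of -1.12 and a range of -2.12 to -0.27. In 41 of the 42 all OFF3 arrays lay below all TUM arrays, against 22.7% of all genes. At least 2-fold falls were called in 26 members and in 1.98% of all genes. In OFF6 against TUM tumours 40 members were called lower and 0 higher (16.6% and 14.9% of all genes), the median was -1.15 against 0.05 for all genes, and 40 had OFF6 arrays wholly below TUM, where 21.6% of all genes did. At least 2-fold falls at 6 days were called in 24 members and in 2.14% of all genes. The genes that were not called at 3 days were Pcna, E2f2 and E2f8, and those not called at 6 days were E2f2 and E2f8.

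**Figure D1:**
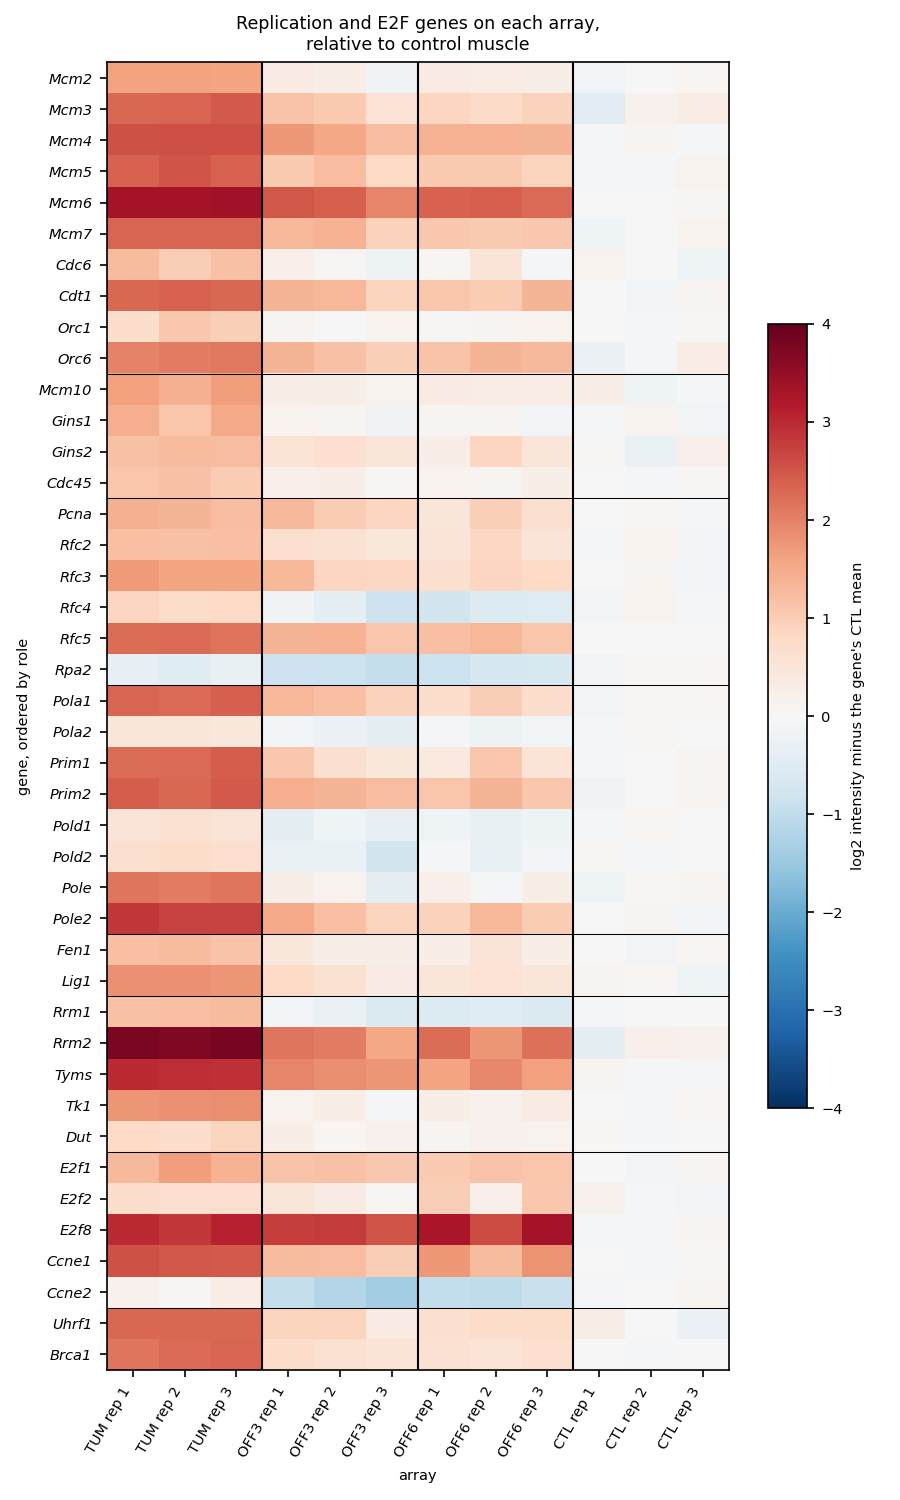
Log2 intensity of each of the 42 genes on each of the 12 arrays, shown as the difference from that gene's own mean on the CTL arrays, with genes ordered by role and arrays by group. Most members stand highest on the TUM arrays; Rpa2 is highest in CTL, and E2f2 and E2f8 each have 2 of their 3 OFF6 arrays above TUM.

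The arrays of a group were close to each other with 2 exceptions that bear on these genes. The median over the 42 members of the difference from CTL was 1.74, 1.75 and 1.71 on the TUM arrays, 0.77, 0.62 and 0.45 on the OFF3 arrays and 0.51, 0.74 and 0.60 on the OFF6 arrays. OFF3 replicate 3 was the lowest array of its group in 39 of the 42 genes. Without it 38 members and 2516 of all genes were called lower at 3 days, and the members' median was -0.98. The same array had the highest summed intensity of 12 muscle fibre markers in its group (64100, against 50170 and 48400 on the other OFF3 arrays). OFF6 replicate 2 correlated better across genes with the OFF3 arrays (mean r = 0.9952) than with its own group (0.9911), a description of arrays in which genes are not replicates. Without it 40 members were called lower and 2 higher in OFF6 against TUM. Of all genes 3664 were called lower and 3222 higher in that setting.

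Summed marker intensities of the tissue moved alongside, but single markers did not all follow their sum. The summed intensity of the 12 muscle fibre markers ran from 27260 to 29280 in TUM tumours, 48400 to 64100 in OFF3, 52630 to 53390 in OFF6 and 97520 to 100100 in CTL muscle. That of 6 fibroblast markers ran from 12720 to 13180, 19690 to 20540, 14260 to 19630 and 10220 to 10660 in TUM, OFF3, OFF6 and CTL, and that of 7 macrophage markers from 15400 to 15670, 18630 to 19630, 12460 to 18450 and 2888 to 3254. For 6 myoblast markers it ran from 10290 to 10800, 12700 to 13150, 12910 to 18190 and 8287 to 8482, and for 5 endothelial markers from 2079 to 2158, 3070 to 3303, 2346 to 2820 and 3979 to 4068. The 5 measured lymphocyte and NK markers summed to 367.2 to 381.8 in TUM, 509.6 to 652.9 in OFF3, 529.4 to 842.9 in OFF6 and 239.6 to 262.1 in CTL, and the 2 measured erythroid markers to 115.8 to 122.7, 120.2 to 143, 130.2 to 147.6 and 227 to 300.2 in the same groups. OFF6 replicate 2 was the odd array of its group here too, with a macrophage sum of 18450 against 12460 and 12710, a fibroblast sum of 19630 against 15110 and 14260 and a myoblast sum of 12910 against 17980 and 18190. A sum follows its brightest genes. In TUM minus CTL 4 of 6 fibroblast markers were called lower and 2 higher. Of 5 lymphocyte and NK markers 3 were called lower and 2 higher there (45.9% and 30.3% of all genes). Of 7 macrophage markers in OFF3 minus TUM, 2 were called higher, 1 lower and 4 neither (13.4% of all genes higher, 16% lower). No marker was listed at 0, since an array gives a background intensity to every probe set. The part of these shifts in the falls described here was not tested.

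Promoters were read from RefSeq entries on GRCm38.p6, which covered 35 of the 42 genes with a window from 250 bases before to 50 bases after the start site. Mcm4, Gins1, Gins2, Prim2, Pole, Rfc2 and Ccne2 had no entry. Some genes had more than 1 entry, and a gene was counted as holding a word when any of its windows did. A core E2F word of 8 letters (TTTGGCGC, TTTCCCGC, TTTGCCGC or TTTCGCGC, on either strand) stood in 14 of the 35 genes (40%), and in 3.5% of 15613 measured genes with an entry. The 7-letter words left when the first T of each is dropped stood in 22 of the 35 (62.9%), against 14.7% of all. The letters CCAAT, which nuclear factor Y is known to bind, stood in 60% of these members and 41.7% of all. TTTGAA, the cell cycle homology region of late cell cycle genes, stood in 17.1% and 17.3%. Median GC content was 57.7% in members and 57.5% in all. A match describes letters in a window and is no measure of binding. Those holding an 8-letter word were Cdc6, Cdt1, E2f2, Lig1, Mcm3, Mcm5, Mcm6, Mcm7, Orc1, Pola1, Pold1, Pole2, Rfc3 and Uhrf1. All of these but E2f2 were called lower at both times, where 39 of all 42 members were at 3 days and 40 at 6 days. A link between word and fall was not tested. The following 28-base stretches show 1 such site in each gene where the window held its flanks, which left out E2f2 and Pold1, with the 8-letter word in capitals and the strand that carries it.
Mcm3 (chr1:20820276-20820303, plus strand shown): cttcccaagtTTTCCCGCcacggaagtt
Mcm5 (chr8:75109346-75109373, plus strand shown): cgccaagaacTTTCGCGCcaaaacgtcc
Mcm6 (chr1:128359798-128359825, minus strand shown): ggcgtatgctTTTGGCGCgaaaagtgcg
Mcm7 (chr5:138172031-138172058, plus strand shown): ggacaccctgTTTCCCGCggttcgaaat
Cdc6 (chr11:98908003-98908030, minus strand shown): ccccaggcgaTTTCCCGCtctccaccgg
Cdt1 (chr8:122568037-122568064, plus strand shown): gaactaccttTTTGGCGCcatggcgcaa
Orc1 (chr4:108579417-108579444, minus strand shown): ggagaaaactTTTCGCGCcactaaccga
Rfc3 (chr5:151651201-151651228, minus strand shown): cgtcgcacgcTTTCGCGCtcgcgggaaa
Pola1 (chrX:93632276-93632303, plus strand shown): cgggagtgcaTTTGGCGCcctgtgatga
Pole2 (chr12:69228163-69228190, plus strand shown): atgttcgcgaTTTGGCGCcaccgccgac
Lig1 (chr7:13278842-13278869, minus strand shown): gccacacagaTTTCGCGCgcactttggc
Uhrf1 (chr17:56304118-56304145, plus strand shown): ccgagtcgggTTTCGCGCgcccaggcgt

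The genes that license origins fell as a body. All 10 were called lower at both times, with medians of -1.12 at 3 days and -1.18 at 6 days, and 8 then 7 of them fell at least 2-fold. Mcm2 and Mcm3, subunits of the ring-shaped helicase, fell most at 3 days. Mcm2 stood at 9.74, 9.74 and 9.70 on the TUM arrays, 8.44, 8.39 and 7.98 on OFF3 arrays, 8.44, 8.43 and 8.36 on OFF6 arrays and 8.03, 8.14 and 8.21 on CTL arrays. Its OFF3 minus TUM difference was -1.45 ± 0.10 (adjusted p = 6.07e-07) and its OFF6 minus TUM difference -1.32 ± 0.10 (adjusted p = 9.23e-07). Every tumour array off doxycycline lay below every TUM array, and the OFF3 arrays overlapped those of CTL muscle.

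Mcm3 had 8.87, 8.89 and 9.01 in TUM, 7.72, 7.61 and 7.14 in OFF3, 7.42, 7.32 and 7.47 in OFF6 and 6.11, 6.73 and 6.85 in CTL. The differences were -1.43 ± 0.18 (adjusted p = 5.64e-05) at 3 days and -1.52 ± 0.18 (adjusted p = 2.86e-05) at 6 days, so that the 3 tumour groups lay above CTL with no overlap and OFF3 and OFF6 overlapped each other. The other helicase subunits Mcm4, Mcm5, Mcm6 and Mcm7 fell by 1.07, 1.39, 1.06 and 1.12 on the log2 scale at 3 days. The helicase loaders Cdc6 (-1.12 ± 0.15) and Cdt1 (-1.13 ± 0.12) and the origin recognition subunit Orc6 (-0.89 ± 0.13) fell too. Orc1, the large subunit of the origin recognition complex and the least changed of the 10 at 3 days, stood at 5.42, 5.79 and 5.67 in TUM, 4.81, 4.73 and 4.86 in OFF3, 4.76, 4.83 and 4.85 in OFF6 and 4.73, 4.66 and 4.75 in CTL. It fell by 0.83 on the log2 scale at 3 days (adjusted p = 1.19e-05), to a level at which the OFF3 and CTL arrays overlapped.

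Of the 4 genes that activate the loaded helicase, all fell at both times, with medians of -1.13 and -1.10. Mcm10, which helps the helicase unwind DNA, had 7.57, 7.35 and 7.60 in TUM, 6.19, 6.16 and 6.07 in OFF3, 6.26, 6.24 and 6.24 in OFF6 and 6.18, 5.76 and 5.87 in CTL, a difference of -1.36 ± 0.10 at 3 days (adjusted p = 8e-07). Gins1, a GINS subunit, stood at 6.90, 6.54 and 6.95 in TUM, 5.56, 5.53 and 5.30 in OFF3, 5.54, 5.54 and 5.32 in OFF6 and 5.39, 5.58 and 5.33 in CTL, a difference of -1.33 ± 0.12 (adjusted p = 3.22e-06). For Gins1 the OFF3 and the OFF6 arrays both overlapped CTL. Gins2, another GINS subunit and the least changed of the 4 at 3 days, had 7.93, 8.03 and 8.01 in TUM, 7.30, 7.43 and 7.25 in OFF3, 7.02, 7.62 and 7.26 in OFF6 and 6.82, 6.51 and 6.97 in CTL. Its difference at 3 days was -0.67 ± 0.14 (adjusted p = 0.003). Cdc45, the third part of the active helicase, fell by 0.93 on the log2 scale.

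**Figure D2:**
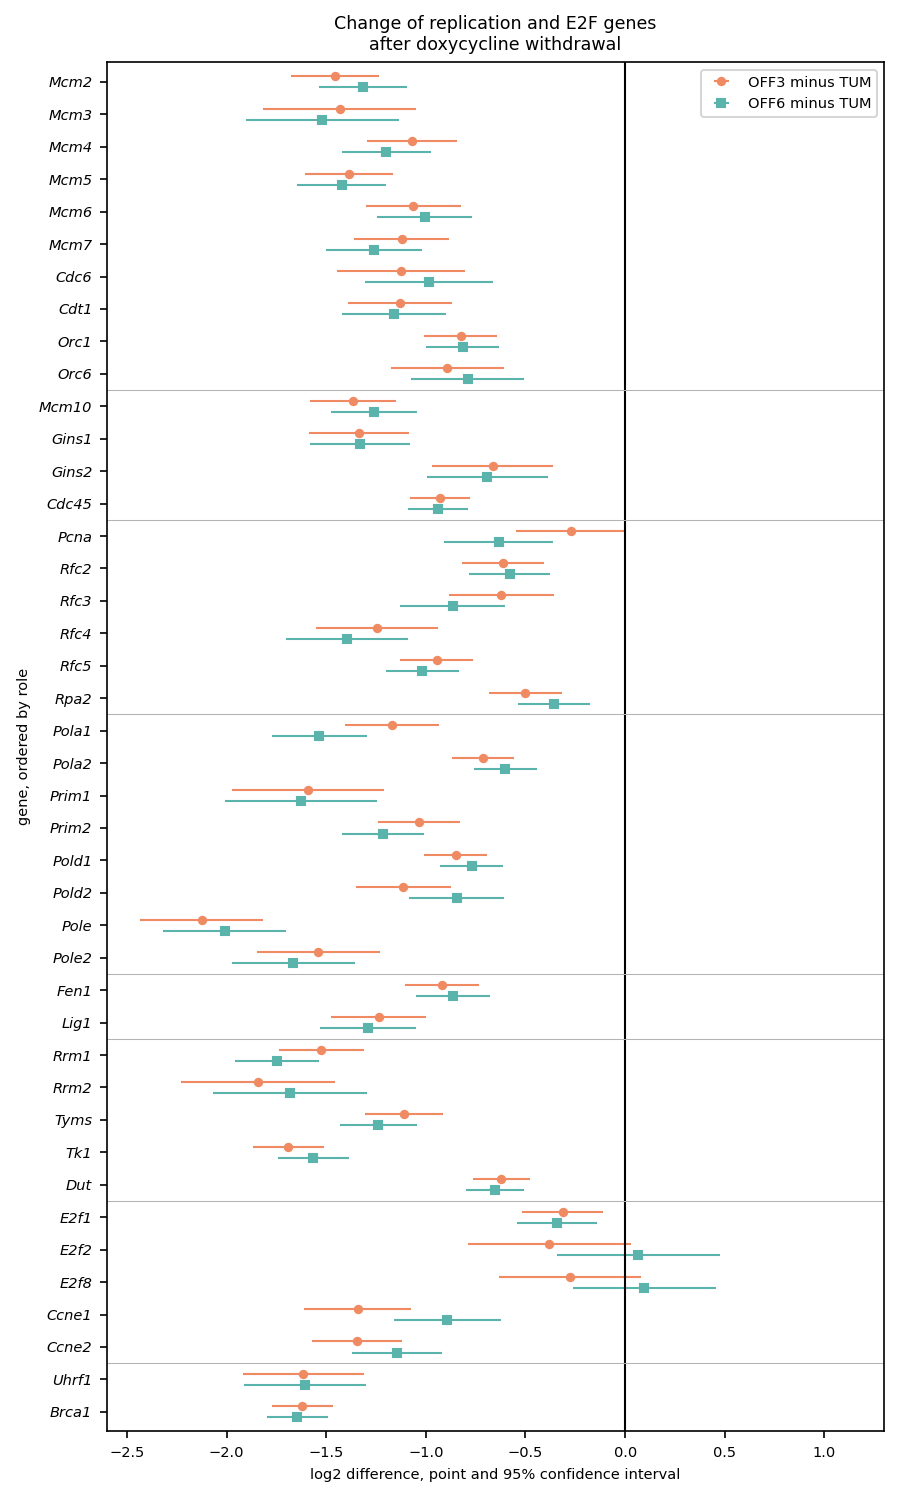
OFF3 minus TUM and OFF6 minus TUM log2 differences of the 42 genes with 95% confidence intervals, grouped by role. Nearly every interval lies left of 0 at both times. Those of E2f2 and E2f8 cross it at both times, and that of Pcna reaches just past it at 3 days.

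The polymerases and primase held the deepest fall of the 42. All 8 were called lower at both times, with medians of -1.14 and -1.37. Pole, the catalytic subunit of DNA polymerase epsilon, which copies the leading strand, stood at 9.16, 9.09 and 9.15 in TUM, 7.25, 7.15 and 6.63 in OFF3, 7.20, 6.94 and 7.23 in OFF6 and 6.83, 7.07 and 7.13 in CTL. That was -2.12 ± 0.14 at 3 days (4.36-fold lower, adjusted p = 4.29e-07) and -2.01 ± 0.14 at 6 days (4.02-fold lower, adjusted p = 4.85e-07). Its OFF3 and OFF6 arrays overlapped those of muscle, with an OFF3 minus CTL difference of -0.00 ± 0.14. Prim1, the primase subunit that makes the RNA primer, had 7.71, 7.76 and 7.90 in TUM, 6.57, 6.11 and 5.91 in OFF3, 5.89, 6.56 and 6.03 in OFF6 and 5.40, 5.46 and 5.60 in CTL, a difference of -1.59 ± 0.18 (adjusted p = 2.26e-05) at 3 days.

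Pola2, the accessory subunit of polymerase alpha, changed least of this group at 3 days. It stood at 8.57, 8.57 and 8.50 in TUM, 7.95, 7.86 and 7.69 in OFF3, 7.98, 7.88 and 7.97 in OFF6 and 8.01, 8.14 and 8.08 in CTL, a difference of -0.71 ± 0.07 at 3 days (adjusted p = 1.11e-05). Pole2, the second subunit of polymerase epsilon, fell by 1.54 on the log2 scale at 3 days and by 1.66 at 6 days. Pola1, the catalytic subunit of polymerase alpha, fell by 1.17 and by 1.53, Prim2 of the primase by 1.03 and by 1.21, and Pold1 and Pold2 of the lagging-strand polymerase delta by 0.85 and 1.11 at 3 days.

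The clamp, its loader and the single-strand binding protein made up 6 genes, with medians of -0.62 at 3 days, when 5 were called lower, and of -0.75 at 6 days, when all 6 were. Rfc4, a clamp loader subunit, stood at 9.73, 9.60 and 9.65 in TUM, 8.73, 8.49 and 8.03 in OFF3, 8.14, 8.31 and 8.34 in OFF6 and 8.76, 9.01 and 8.83 in CTL, a difference of -1.24 ± 0.14 at 3 days (adjusted p = 2.81e-05). Rfc5, another loader subunit, had 10.57, 10.62 and 10.51 in TUM, 9.69, 9.74 and 9.43 in OFF3, 9.54, 9.66 and 9.45 in OFF6 and 8.33, 8.34 and 8.35 in CTL, a difference of -0.95 ± 0.08 (adjusted p = 3.77e-06). Off doxycycline Rfc4 lay below muscle and Rfc5 above it, on all arrays. Rfc2 and Rfc3, also of the loader, fell by 0.61 and by 0.62 on the log2 scale.

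Pcna, the sliding clamp itself, was the 1 member whose OFF3 and TUM arrays overlapped on the probe set used. It stood at 11.30, 11.26 and 11.11 in TUM, 11.19, 10.92 and 10.74 in OFF3, 10.38, 10.85 and 10.53 in OFF6 and 9.89, 9.98 and 9.80 in CTL. The OFF3 minus TUM difference was -0.27 ± 0.13, with a 95% interval of -0.55 to 0.00 and adjusted p = 0.137. At 6 days it was -0.64 ± 0.13 (adjusted p = 0.00193), a fall of 1.55-fold. A second probe set of Pcna gave -0.37 at 3 days, with its OFF3 arrays all below its TUM arrays. The 3-day call passed when that probe set (adjusted p = 0.0199) or the mean of both (adjusted p = 0.0464) was used. It also passed without OFF3 replicate 1 (-0.39, adjusted p = 0.0338) and with array weights (adjusted p = 0.000385). Adjusted p for Pcna at 3 days ran from 0.000385 to 0.452 over all alternatives.

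Rpa2, a subunit of the protein that coats single-stranded DNA, had 8.44, 8.29 and 8.49 in TUM, 7.95, 7.93 and 7.83 in OFF3, 7.91, 8.09 and 8.15 in OFF6 and 8.65, 8.83 and 8.86 in CTL. It fell by 0.50 on the log2 scale at 3 days (adjusted p = 0.000598) and by 0.36 at 6 days (adjusted p = 0.00559). It was the 1 member lower in TUM tumours than in muscle.

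Both genes that join Okazaki fragments fell at both times. Lig1, the ligase that seals nicks, stood at 8.64, 8.65 and 8.58 in TUM, 7.61, 7.43 and 7.13 in OFF3, 7.30, 7.40 and 7.31 in OFF6 and 6.92, 6.89 and 6.63 in CTL, a difference of -1.24 ± 0.11 (adjusted p = 3.89e-06) at 3 days. Fen1, the flap nuclease, had 7.45, 7.51 and 7.39 in TUM, 6.65, 6.49 and 6.46 in OFF3, 6.49, 6.76 and 6.51 in OFF6 and 6.26, 6.14 and 6.31 in CTL, a difference of -0.92 ± 0.08 (adjusted p = 5.3e-06). In both genes the order of the groups was TUM, then OFF3 and OFF6 overlapping each other, then CTL.

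The nucleotide supply genes had a median of -1.52 at 3 days and -1.57 at 6 days, and all 5 fell at both times. Rrm2, the S phase subunit of ribonucleotide reductase, stood at 10.32, 10.27 and 10.36 in TUM, 8.70, 8.61 and 8.12 in OFF3, 8.81, 8.33 and 8.77 in OFF6 and 6.21, 6.75 and 6.73 in CTL. It fell by 1.84 on the log2 scale (3.58-fold, adjusted p = 7.7e-06) at 3 days and by 1.68 at 6 days (3.21-fold, adjusted p = 1.3e-05). The tumours off doxycycline still lay above muscle on every array. Tk1, cytosolic thymidine kinase, had 9.13, 9.21 and 9.22 in TUM, 7.53, 7.64 and 7.33 in OFF3, 7.61, 7.55 and 7.71 in OFF6 and 7.36, 7.30 and 7.46 in CTL. Its 3-day difference was -1.69 ± 0.08 (3.22-fold, adjusted p = 4e-08), and its second probe set gave -1.69 as well. Tk1 in OFF3 overlapped muscle.

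Rrm1, the large subunit of ribonucleotide reductase, fell by 1.52 on the log2 scale at 3 days, and Tyms, thymidylate synthase, by 1.11. Dut, which keeps uracil out of DNA, changed least of the 5 at 3 days. It stood at 7.95, 7.84 and 8.04 in TUM, 7.41, 7.24 and 7.33 in OFF3, 7.27, 7.33 and 7.28 in OFF6 and 7.18, 7.12 and 7.15 in CTL, a difference of -0.62 ± 0.07 at 3 days (adjusted p = 1.72e-05).

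Uhrf1 and Brca1 fell by nearly equal steps. Uhrf1, which guides upkeep of DNA methylation on new strands, stood at 8.18, 8.18 and 8.17 in TUM, 6.75, 6.75 and 6.19 in OFF3, 6.51, 6.59 and 6.61 in OFF6 and 6.09, 5.87 and 5.65 in CTL. Brca1, of homologous recombination repair, had 7.68, 7.78 and 7.86 in TUM, 6.27, 6.12 and 6.07 in OFF3, 6.12, 6.07 and 6.19 in OFF6 and 5.54, 5.48 and 5.55 in CTL. The 3-day differences were -1.61 ± 0.14 for Uhrf1 (adjusted p = 3.19e-06) and -1.62 ± 0.07 for Brca1 (adjusted p = 1.96e-08). In both genes all OFF3 and OFF6 arrays lay between the TUM and the CTL arrays.

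The 250 bases before the start site are shown for the members with the deepest 3-day falls that had a promoter entry and for the pair with the smallest (Pcna and E2f8), on GRCm38.p6 from RefSeq. Capitals mark a 7-letter E2F word. In Rrm2 it begins at position -235 from the start site and reads on the other strand, and in E2f8 it begins at position -111 and overlaps a CCAAT on the other strand. Brca1 has 1 such word at position 22 after the start site, outside the stretch shown, and the windows of Tk1 and Pcna hold none.
Rrm2 (chr12:24708004-24708253, plus strand): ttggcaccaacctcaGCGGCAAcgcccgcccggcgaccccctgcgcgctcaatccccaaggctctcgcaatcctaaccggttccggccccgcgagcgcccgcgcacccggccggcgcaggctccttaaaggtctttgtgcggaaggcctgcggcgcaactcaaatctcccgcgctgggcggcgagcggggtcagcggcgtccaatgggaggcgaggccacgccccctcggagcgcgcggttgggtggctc
Tk1 (chr11:117826015-117826264, minus strand): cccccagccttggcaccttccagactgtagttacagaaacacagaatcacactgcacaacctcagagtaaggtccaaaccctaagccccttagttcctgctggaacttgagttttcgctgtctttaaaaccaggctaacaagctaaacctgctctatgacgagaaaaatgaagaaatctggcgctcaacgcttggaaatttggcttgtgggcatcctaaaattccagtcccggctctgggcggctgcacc
Brca1 (chr11:101551956-101552205, minus strand): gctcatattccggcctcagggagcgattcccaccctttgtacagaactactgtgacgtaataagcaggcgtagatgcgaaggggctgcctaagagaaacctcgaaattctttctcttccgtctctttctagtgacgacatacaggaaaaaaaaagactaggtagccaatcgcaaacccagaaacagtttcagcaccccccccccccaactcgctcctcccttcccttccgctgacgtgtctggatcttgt
Pcna (chr2:132253181-132253430, minus strand): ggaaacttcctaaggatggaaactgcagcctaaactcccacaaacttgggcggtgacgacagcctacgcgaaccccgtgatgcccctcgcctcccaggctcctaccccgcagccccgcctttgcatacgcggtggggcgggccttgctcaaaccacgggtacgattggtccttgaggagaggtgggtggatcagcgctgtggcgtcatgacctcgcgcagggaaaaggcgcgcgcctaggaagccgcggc
E2f8 (chr7:48881597-48881846, minus strand): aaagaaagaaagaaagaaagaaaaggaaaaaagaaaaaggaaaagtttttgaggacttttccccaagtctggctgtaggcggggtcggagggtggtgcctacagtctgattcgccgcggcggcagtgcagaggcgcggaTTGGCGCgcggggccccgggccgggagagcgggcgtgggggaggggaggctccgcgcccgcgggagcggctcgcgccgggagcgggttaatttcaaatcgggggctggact

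The E2F factors themselves and cyclin E moved apart. Of the 5 genes, 3 were called lower at each time, with medians of -0.38 and -0.34. Both cyclin E genes, which encode activators of the kinase that starts S phase, fell at both times. Ccne2 stood at 7.60, 7.47 and 7.72 in TUM, 6.46, 6.26 and 6.03 in OFF3, 6.44, 6.40 and 6.53 in OFF6 and 7.34, 7.41 and 7.52 in CTL, a difference of -1.35 ± 0.10 at 3 days (adjusted p = 1.18e-06) and -1.14 ± 0.10 at 6 days (adjusted p = 3.54e-06). Ccne1 had 9.08, 9.00 and 8.99 in TUM, 7.79, 7.74 and 7.50 in OFF3, 8.27, 7.79 and 8.33 in OFF6 and 6.52, 6.46 and 6.58 in CTL. Its difference was -1.34 ± 0.12 at 3 days (adjusted p = 5.03e-06) and -0.89 ± 0.12 at 6 days (adjusted p = 0.000122).

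E2f1, an activating E2F, fell little. It stood at 8.11, 8.49 and 8.21 in TUM, 7.97, 8.0 and 7.89 in OFF3, 7.88, 7.98 and 7.93 in OFF6 and 6.80, 6.73 and 6.95 in CTL. The 3-day difference was -0.31 ± 0.09 (adjusted p = 0.0215) and the 6-day difference -0.34 ± 0.09 (adjusted p = 0.0132). These calls leaned on TUM replicate 2: without it the differences were -0.21 (adjusted p = 0.0903) and -0.23 (adjusted p = 0.0537), and the 3-day call was also lost without OFF3 replicate 3 (-0.28, adjusted p = 0.0744). Adjusted p ran from 0.00873 to 0.0903 at 3 days and from 0.00451 to 0.0537 at 6 days over all alternatives.

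E2f2, another activator, and E2f8, an atypical repressor that is itself an E2F target, were called at neither time. E2f8 stood at 8.70, 8.54 and 8.79 in TUM, 8.47, 8.51 and 8.21 in OFF3, 8.98, 8.30 and 9.03 in OFF6 and 5.62, 5.66 and 5.82 in CTL. The differences were -0.28 ± 0.16 at 3 days (95% interval -0.63 to 0.08, adjusted p = 0.257) and 0.10 ± 0.16 at 6 days (-0.26 to 0.45, adjusted p = 0.691). E2f2 had 7.73, 7.70 and 7.68 in TUM, 7.51, 7.35 and 7.11 in OFF3, 8.02, 7.21 and 8.08 in OFF6 and 7.19, 6.97 and 6.89 in CTL. Its differences were -0.38 ± 0.19 at 3 days (-0.79 to 0.03, adjusted p = 0.163) and 0.07 ± 0.19 at 6 days (-0.34 to 0.47, adjusted p = 0.823).

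In both genes OFF6 replicates 1 and 3 lay above every TUM array and OFF6 replicate 2 lay below every TUM array. Without that array, which resembled the OFF3 arrays, the OFF6 minus TUM difference was 0.35 for E2f2 (adjusted p = 0.0279) and 0.34 for E2f8 (adjusted p = 0.0241), and both were called higher, as they were with array weights. Adjusted p at 6 days ran from 0.00451 to 0.954 for E2f2 and from 0.00516 to 0.981 for E2f8 over all alternatives. At 3 days all OFF3 arrays of both genes lay below TUM, and array weights called both lower, E2f2 with adjusted p = 0.000366 and E2f8 with adjusted p = 0.0249. The other alternative that called E2f2 at 3 days was a model of only the 6 arrays compared (adjusted p = 0.0154).

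**Figure D3:**
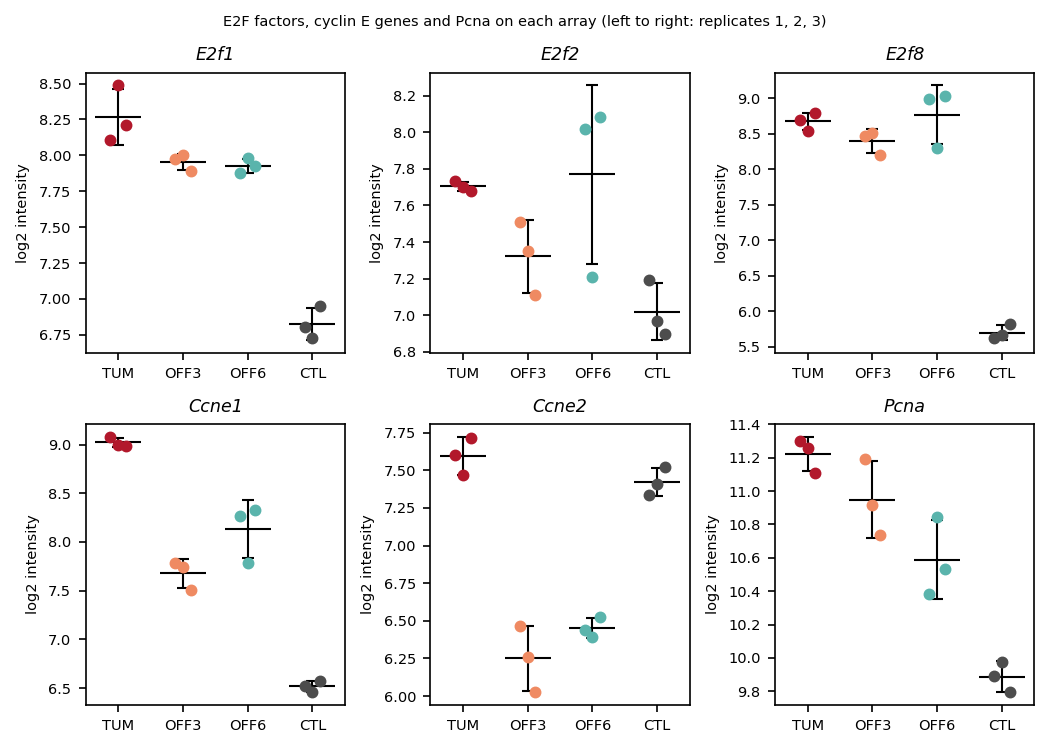
Log2 intensity on each of the 12 arrays for E2f1, E2f2, E2f8, Ccne1, Ccne2 and Pcna, with a wide bar at the group mean and error bars of 1 SD (n = 3). In E2f2, E2f8 and Ccne1, OFF6 replicate 2 sits apart from the other OFF6 arrays, at or near the OFF3 level.

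Between 6 and 3 days little moved among the members when all arrays were kept. In OFF6 minus OFF3, 4.38% of all genes were called lower and 6.05% higher, and of the 42 members 0 were lower and 1, Ccne1, was higher. The members' median was -0.00 against 0.02 for all genes, with 21 differences below 0. Ccne1 differed by 0.45 ± 0.12 (adjusted p = 0.0374), with 2 of the 3 OFF6 arrays above all OFF3 arrays. That call was lost when OFF3 replicate 1, 2 or 3 or OFF6 replicate 1 or 3 was left out (adjusted p from 0.0611 to 0.178) and when the model held just the OFF6 and OFF3 arrays (0.185), while without OFF6 replicate 2 the difference was 0.62 (adjusted p = 0.00019). It ran from 3.73e-06 to 0.185 over all alternatives. Leaving out OFF6 replicate 2 also brought calls for E2f2 (0.73, adjusted p = 0.00044) and E2f8 (0.61, adjusted p = 0.000978) as higher at 6 days. The same setting called Pcna (-0.49, adjusted p = 0.00808), Pola1 (-0.46, adjusted p = 0.00696), Prim2 (-0.27, adjusted p = 0.0406) and Tyms (-0.23, adjusted p = 0.0499) lower. Of all genes it called 2473 lower and 2401 higher.

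Against normal muscle the tumours on doxycycline carried far more of these transcripts. In TUM minus CTL, 30.3% of all genes were called higher and 45.9% lower, with a median of -0.15, whereas 40 of the 42 members were higher and 1 lower, with a median of 1.72. At least 2-fold rises were called in 33 members and in 13.7% of all genes. The 40 called higher had TUM arrays wholly above CTL, as 32.3% of all genes did. The largest differences were those of Rrm2 (3.75 ± 0.18, 13.5-fold, adjusted p = 8.14e-10), Mcm6 (3.34 ± 0.11, 10.1-fold, adjusted p = 3.43e-11), E2f8 (2.97 ± 0.16, 7.85-fold, adjusted p = 3.52e-09) and Tyms (2.96 ± 0.09, 7.76-fold, adjusted p = 1.86e-11). Rpa2 was lower in TUM (-0.37 ± 0.08, adjusted p = 0.00141), and Ccne2 was not called (0.17 ± 0.10, 95% interval -0.05 to 0.40, adjusted p = 0.146). These comparisons and those with TUM share the TUM arrays, so a member's fall and its excess over muscle are not independent.

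After withdrawal most members still exceeded muscle, and a few did not. In OFF3 minus CTL, 27 members were higher and 7 lower (28.4% and 41.4% of all genes), with a median of 0.60. In OFF6 minus CTL, 29 were higher and 5 lower (28.1% and 36.1%), with a median of 0.65. The OFF3 arrays lay below TUM and above CTL in 26 members (11.3% of all genes), below TUM and overlapping CTL in 8 (4.96%), below both in 7 (6.41%), and overlapped TUM in 1. For OFF6 these counts were 30 (12.6% of all genes), 3 (4.57%), 7 (4.44%) and 2. Rrm2, Tyms, Mcm6 and E2f8 kept the widest gap over muscle at 6 days, at 2.07 ± 0.18, 1.72 ± 0.09, 2.34 ± 0.11 and 3.07 ± 0.16.

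The 7 members lower than muscle at 3 days were Rfc4, Rpa2, Pola2, Pold1, Pold2, Rrm1 and Ccne2, and in each all OFF3 and all OFF6 arrays lay below all CTL arrays, as they did in 43.1% and 39.6% of all genes. Ccne2 was furthest below, by -1.17 ± 0.10 at 3 days (adjusted p = 4.61e-07) and -0.97 ± 0.10 at 6 days (adjusted p = 3.19e-06), followed by Rpa2 at -0.87 ± 0.08 (adjusted p = 9.8e-07) and -0.73 ± 0.08 (adjusted p = 6.17e-06). Rrm1 stood at 11.00, 11.01 and 11.08 in TUM, 9.72, 9.56 and 9.24 in OFF3, 9.28, 9.33 and 9.24 in OFF6 and 9.78, 9.83 and 9.83 in CTL, lower than muscle by -0.31 ± 0.10 (adjusted p = 0.0132) and -0.53 ± 0.10 (adjusted p = 0.000391). Pold1 had 7.72, 7.81 and 7.72 in TUM, 6.80, 7.03 and 6.87 in OFF3, 7.04, 6.90 and 7.01 in OFF6 and 7.14, 7.28 and 7.20 in CTL. Pold2 had 11.05, 11.14 and 11.08 in TUM, 10.13, 10.13 and 9.67 in OFF3, 10.32, 10.11 and 10.30 in OFF6 and 10.45, 10.36 and 10.40 in CTL.

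At 6 days 5 of the 7 stayed called as lower, and Pola2 (-0.13 ± 0.07, adjusted p = 0.129) and Pold2 (-0.16 ± 0.11, adjusted p = 0.214) were not. The Rfc4 call at 3 days (-0.45 ± 0.14, adjusted p = 0.0129) was lost without CTL replicate 2 (-0.38, adjusted p = 0.0526), and the Pold1 call at 6 days (-0.22 ± 0.07, adjusted p = 0.0171) without CTL replicate 2 (-0.19, adjusted p = 0.0633) or OFF6 replicate 2 (-0.18, adjusted p = 0.056). Scaling matters more here than between tumours. Centring each array on its median gave a median of all genes of -0.29 in TUM minus CTL in place of -0.15, of -0.30 in OFF3 minus CTL in place of -0.12 and of -0.28 in OFF6 minus CTL in place of -0.09. With that scaling 4665 genes were higher and 12243 lower than muscle in OFF3, in place of 5657 and 8253, and 4486 and 12001 in OFF6, in place of 5602 and 7188. The differences of the 7 genes from CTL were below 0 at both times with the deposited scaling, with centred arrays and with quantile normalisation. At 6 days centring called Pola2 (-0.31, adjusted p = 0.00229) and Pold2 (-0.34, adjusted p = 0.0115) lower as well, and quantile normalisation called Pola2 (-0.38, adjusted p = 0.000166). Calls above muscle depended on scaling too. Centring lost those of Cdc45, Fen1 and Dut at 3 days and of Mcm2, Mcm10, Fen1 and Tk1 at 6 days. Quantile normalisation lost Cdc45 and Dut at 3 days and Mcm2 and Tk1 at 6 days. It gained Mcm10 at 3 days and Orc1 at both times.

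**Figure D4:**
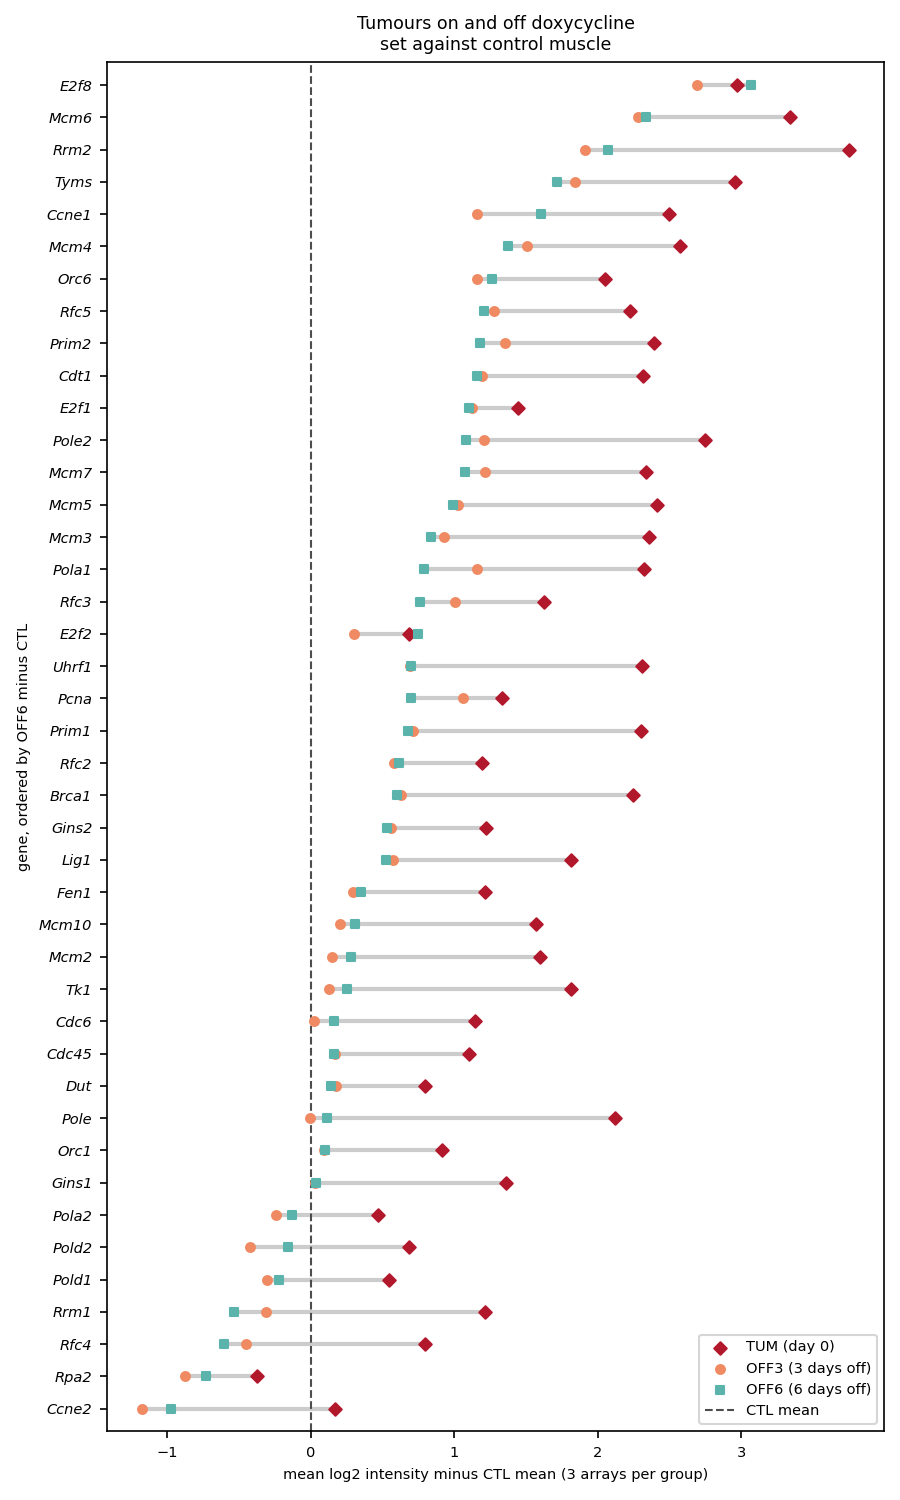
Log2 difference from CTL muscle for each of the 42 genes in TUM, OFF3 and OFF6 tumours. Every gene but Rpa2 lies right of 0 in TUM, and the 7 genes at the bottom lie left of 0 in both OFF3 and OFF6.

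Genes of the same processes outside the 42 were read from lists by role. Each count is to be read against the shares of all genes. These were 16% lower and 13.4% higher at 3 days, and 16.6% and 14.9% at 6 days. Of 18 further origin and firing factors, 12 were lower and 0 higher at 3 days (median -0.37) and 16 and 0 at 6 days (median -0.50). Ticrr (-1.92 ± 0.08), a partner of TopBP1 in origin firing, and Dbf4 (-1.73 ± 0.15), the activator of the CDC7 kinase, fell most at 3 days. Of 14 further polymerase, clamp and RPA genes 9 were lower and 0 higher at 3 days (median -0.50), led by the PCNA-binding Pclaf (-1.55 ± 0.10) and the clamp unloader Atad5 (-1.15 ± 0.13). At 6 days 12 were lower and 1 higher (median -0.59), the 1 being Pold4 (0.41 ± 0.09), a small polymerase delta subunit, named after its value was seen. All 12 measured fork protection and recombination genes were lower at both times (medians -1.17 and -1.17), with the nuclease Exo1 (-1.75 ± 0.09) and the Fanconi anaemia gene Fancd2 (-1.68 ± 0.07) in front.

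Nucleotide supply outside the set was mixed. At 3 and 6 days 16% and 16.6% of all genes were lower, and 13.4% and 14.9% higher. Of the 8 measured genes of this list 4 were lower and 1 higher at each time, with medians of -0.44 and -0.28. The count of higher genes was near the share of all genes. In this list Shmt1 (-0.88 ± 0.10) of folate metabolism and the nucleotide pool cleaner Dctpp1 (-0.71 ± 0.08) fell most at 3 days. The mitochondrial thymidine kinase Tk2 was higher at 3 days (0.44 ± 0.11). At 6 days Tk2 was not called (0.06 ± 0.11, adjusted p = 0.735) and Rrm2b, the p53-induced reductase subunit, was (0.25 ± 0.08, adjusted p = 0.0415), named after its value was seen. Rrm2b did not pass without TUM replicate 1, 2 or 3 or without OFF6 replicate 1, 2 or 3, with adjusted p-values between 0.0548 and 0.156. Of 9 chromatin assembly genes 8 were lower and 0 higher at both times (medians -0.95 and -0.90), with the remodeller Hells (-1.76 ± 0.14) and the histone chaperone Asf1b (-1.73 ± 0.15) falling most at 3 days.

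Among 15 other E2Fs, their partners and pocket proteins, 9 were lower and 1 higher at each time, with medians of -0.51 and -0.41. The shares of all genes were 16% and 16.6% lower, and 13.4% and 14.9% higher. E2f7, the atypical repressor paired with E2f8 in its known function, stood at 8.87, 8.85 and 8.99 in TUM, 6.85, 7.07 and 6.82 in OFF3, 7.01, 6.94 and 7.13 in OFF6 and 6.78, 6.75 and 6.89 in CTL. It fell by 1.99 on the log2 scale at 3 days (3.98-fold, adjusted p = 1.5e-08) and by 1.88 at 6 days. Mybl2, a cell cycle activator that joins the MuvB complex, fell by 1.33. The gene that was higher was Rb1, the retinoblastoma protein that restrains E2F, at 9.81, 9.71 and 9.82 in TUM, 10.38, 10.28 and 10.21 in OFF3, 10.83, 10.29 and 10.85 in OFF6 and 9.66, 9.76 and 9.79 in CTL. Its difference was 0.51 ± 0.12 at 3 days (adjusted p = 0.00672) and 0.88 ± 0.12 at 6 days (adjusted p = 0.000134), and again OFF6 replicate 2 lay near the OFF3 arrays.

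The shares of all genes called were 16% lower and 13.4% higher at 3 days, and 16.6% and 14.9% at 6 days. Of 9 measured S phase kinase control genes 6 were lower and 2 higher at each time, with medians of -0.56 and -0.48. Cyclin A, Ccna2 (-1.91 ± 0.21), and Fbxo5 (-1.87 ± 0.14), an inhibitor of the anaphase-promoting complex, fell most at 3 days, and Cdkn1c (0.75 ± 0.15), a kinase inhibitor of the CIP/KIP family, was higher. The other higher gene was Fbxw7, which targets cyclin E for destruction (0.49 ± 0.10 at 3 days and 1.22 ± 0.10 at 6 days), named after its value was seen. All 23 measured mitosis genes were lower at both times, with medians of -1.97 and -1.98 and TUM minus CTL median 3.45, led by the checkpoint kinase Bub1 (-2.84 ± 0.26) and the cytokinesis factor Ect2 (-2.56 ± 0.22). These medians are set beside that of the 42 members (-1.12 at 3 days) as descriptions, and the difference between lists was not tested.

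**Figure D5:**
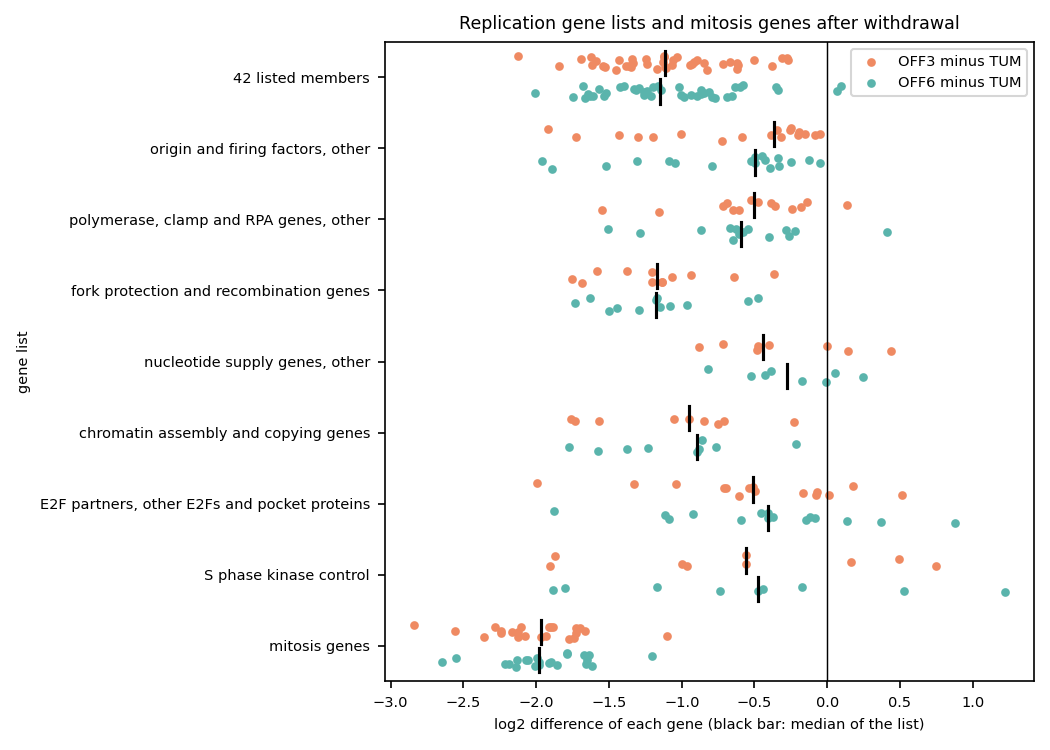
OFF3 minus TUM and OFF6 minus TUM log2 differences of single genes, 1 point per gene, for the 42 members and 8 other lists, with the list median as a line. The mitosis genes lie lowest. The polymerase, nucleotide supply, E2F partner and S phase kinase lists each reach above 0, as do the members at 6 days.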

How the data were processed

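RNA of 12 samples was hybridised to one-colour Affymetrix arrays, 3 in each of 4 groups. The values deposited by the authors are linear intensities per probe set, normalised together by RMA per the submitters' processing notes; its version is not given in the sources used here. RMA makes arrays share 1 distribution of probe intensities, which can hide a shift common to most genes. Column medians ran from 86.7 to 93.0. Of 34760 probe sets, 21640 had 1 gene symbol in the platform annotation, 1321 several and 11799 none. Only the first kind was used, and for 954 genes with several the probe set of highest mean was kept, leaving 19937 genes without a filter on low values. Scanner output was not analysed here.

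The log2 intensities were fitted with limma 3.58.1 (R 4.3.3, the data.table package, version 1.17.8) in 1 model of 4 groups, and 6 two-sided comparisons were read from it, each adjusted by Benjamini-Hochberg over all genes with a threshold of 0.05. The median SE was 0.086 on 12.2 degrees of freedom, and the number of arrays limits the precision. In simulated data for OFF3 against TUM over 19937 genes, 89.6%, 100% and 100% of 67, 67 and 66 genes changed 1.5-, 2- and 4-fold were recovered, and 6.8% of calls were false. The simulated noise was normal and independent between arrays, and only those genes were changed. These rates therefore need not hold for the real arrays, where far more genes were called and some arrays stood apart. Tables and figures used Python 3.11.15, pandas 2.3.3, scipy 1.17.1 and matplotlib 3.10.9.

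The members and lists were chosen with earlier results of these data known. Values on every array are given, in each role, for the 2 members with the largest 3-day difference and that with the smallest, for members not called after withdrawal, for those called between OFF6 and OFF3 and for those called against the majority. In the other lists the 2 genes with the largest called 3-day difference and the largest called against the majority are named, and further ones called against it at 6 days or between OFF6 and OFF3 were named after their values were seen. Promoters are shown for the 4 members with the most negative 3-day difference, of which Pole had no entry, and the 2 with the least. Alternatives covered scaling, probe set choice, a filter on low levels, variance and array weights, a replicate block, the arrays in the model, stricter thresholds and leaving out each array. Same-numbered arrays did not deviate together throughout, so the numbers were not taken as pairs.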

Additional observations from a re-analysis of the deposited data

Results flagged for a closer look

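For 6 genes, 1 of the 42 members and 5 of the other replication, E2F and S phase lists, the change after withdrawal differed between 6 and 3 days by the test of OFF6 minus OFF3 itself. They were picked for that call, which 4.38% of all genes had as lower and 6.05% as higher. Ccne1 was less far below TUM at 6 days, with a difference of 0.45 ± 0.12 (limma adjusted p = 0.0374) and 2 of 3 OFF6 arrays above all OFF3 arrays. Dctpp1, which stood at 8.66, 8.74 and 8.64 in OFF6 and 8.28, 8.41 and 8.36 in OFF3, differed by 0.33 ± 0.08 (limma adjusted p = 0.0221), with all 3 OFF6 arrays higher. That call was lost without OFF3 replicate 1 (adjusted p = 0.0786), OFF6 replicate 1 (0.0752) or OFF6 replicate 3 (0.0743) and with only the 6 arrays compared (0.0906). Tk2 stood at 7.59, 7.84 and 7.68 in OFF6 and 8.38, 7.87 and 8.01 in OFF3, a difference of -0.38 ± 0.11 (limma adjusted p = 0.0467) with all 3 OFF6 arrays lower. It was lost without OFF3 replicate 1 (adjusted p = 0.131) or 3 (0.0578), without OFF6 replicate 1 (0.191) or 3 (0.163) with a replicate block (0.0792) and with only the 6 arrays compared (0.2). The other 3 genes were named after their values were seen. Fbxw7 stood at 8.59, 8.16 and 8.46 in OFF6 and 7.59, 7.67 and 7.77 in OFF3, a difference of 0.73 ± 0.10 (limma adjusted p = 0.00164) with all 3 OFF6 arrays higher, and was lost with only the 6 arrays compared (0.0583). E2f6, a repressive E2F, differed by 0.30 ± 0.08 (limma adjusted p = 0.0258) with all 3 OFF6 arrays higher, and was lost with only the 6 arrays compared (0.148) and without OFF3 replicate 1 (0.0683) or 2 (0.101) or OFF6 replicate 1 (0.0732) or 3 (0.136). Rbl2, the pocket protein p130, differed by -0.26 ± 0.07 (limma adjusted p = 0.0378) with all 3 OFF6 arrays lower. It was lost with only the 6 arrays compared (0.164) and without OFF3 replicate 1 (0.13), 2 (0.058) or 3 (0.0597) or OFF6 replicate 1 (0.101) or 3 (0.187).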

How the results depend on the processing

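Over all settings 26 to 42 members were lower and 0 higher in OFF3 than in TUM, the lowest count being that of at least 2-fold falls. Among single-gene values of members, 3854 kept their call or lack of one, 55 gained a call and 55 lost one. In 2 more the call was lost and the sign changed: with quantile normalisation Cdc45 and Dut in OFF3 minus CTL were -0.014 and -0.038. Sign changes of genes called in neither setting were counted with the 3854. Among other named genes 2178 kept their call or lack of one, 29 gained a call and 49 lost one. Leaving out 1 array gave 38 to 40 members lower in OFF3 minus TUM (median -1.187 to -0.977). In OFF6 minus TUM it gave 39 to 40 lower and 0 to 2 higher (median -1.17 to -1.125). It called 4541 to 5829 and 4856 to 6886 of all genes in these comparisons, lower and higher together. In OFF6 minus OFF3 it gave 452 to 4874 genes called, 0 to 4 members lower, 0 to 3 higher and a median of -0.067 to 0.055, with values of 0.055, 0.03, 0.038 and 0.006 above 0. The TUM minus CTL median ran from 1.682 to 1.75. With only genes above the median level, the members' median was -1.006 in OFF6 minus TUM and 0.928 in OFF3 minus CTL, over 31 members, and 8401, 8165 and 7923 genes were called in TUM, OFF3 and OFF6 minus CTL in place of 15199, 13910 and 12790, fewer genes being tested. The TUM minus CTL median was 1.584 with quantile normalisation, and with centred arrays the medians were 1.58, 0.431 and 0.464 in TUM, OFF3 and OFF6 minus CTL and 1 member, Pola1, was lower in OFF6 minus OFF3. Array weights called 11175, 10545 and 8424 genes in OFF3 minus TUM, OFF6 minus TUM and OFF6 minus OFF3 in place of 5868, 6279 and 2080, with 2 members higher in OFF6 minus TUM and 11 lower and 6 higher in OFF6 minus OFF3; the cause was not tested. With only the 6 arrays compared, 30 genes and 0 members higher were called in OFF6 minus OFF3, and 467 and 0 at adjusted p under 0.01. Requiring 2-fold left 760, 892, 108, 4451, 3766 and 3420 genes in OFF3 minus TUM, OFF6 minus TUM, OFF6 minus OFF3, TUM minus CTL, OFF3 minus CTL and OFF6 minus CTL. It left 24 members lower in OFF6 minus TUM, 0 higher in OFF6 minus OFF3, 0 lower in TUM minus CTL, 1 lower and 17 higher in OFF3 minus CTL and 0 lower and 13 higher in OFF6 minus CTL. With the replicate block 39 and 40 members were lower at 3 and 6 days and 1 was higher in OFF6 minus OFF3, and 5476, 5891 and 1654 genes were called in these comparisons. Same-numbered arrays' deviations correlated between -0.387 and 0.249, and these arrays were not taken as pairs. Whether they shared an animal, host or batch cannot be told from such correlations. Probe sets near background bound what falls in low genes can show, and 3 arrays per group limit all intervals.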
